A study of Homo sapiens with 8 samples.

Results

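TRIM22 and 7 other antiviral genes of the tripartite motif (TRIM) family were followed across a pair of breast epithelial cell lines, each carrying a vector for the long non-coding RNA HOTAIR or the empty vector. The genes were taken by symbol from a table of 13771 genes, and 7 of the 8 listed were found there, namely TRIM22, TRIM5, TRIM6, TRIM21, TRIM25, TRIM14 and TRIM38. TRIM34 had no row and was not analysed here. TRIM22 was chosen by its difference between HOTAIR and empty vector in DCIS.COM cells, so that contrast is given as a description, with no test, for every gene. MCF10A is a non-tumorigenic line labelled as normal breast epithelial, and DCIS.COM is a line labelled as ductal carcinoma in situ, known from background as derived from the MCF10 lineage. Both were stably transduced with lentiviral pCDH, either empty or holding HOTAIR, and all cells, controls included, had been selected with puromycin. The 4 groups held 2 RNA-seq libraries each. MCF10A medium held horse serum, epidermal growth factor, hydrocortisone, insulin and cholera toxin, and DCIS.COM medium held horse serum only, so cell line and medium cannot be told apart. Nothing in the labels says that the 2 libraries of a group came from separate cultures or transductions, so the p-values below measure only the spread between these libraries.

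TRIM proteins are mostly ubiquitin E3 ligases built from a RING finger, a B-box and a coiled coil, and those described here carry a C-terminal SPRY domain that recognises a target. TRIM22, TRIM5, TRIM6 and TRIM34 lie side by side on chromosome 11, and several of the genes are known to be induced by interferon. TRIM5 binds the capsid of incoming retroviruses, TRIM22 restricts several viruses, TRIM21 is the cytosolic antibody receptor, and TRIM25, TRIM14, TRIM6 and TRIM38 act on signalling from RNA sensors and cytokine receptors.

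Total reads recovered from the deposited values ranged from 19306864 to 34884841 per library. HOTAIR was listed between 0.60 and 2.40 log2 CPM (CPM, the count of reads scaled to library size, on a log2 scale) in the 4 empty-vector libraries and between 7.57 and 7.92 in the 4 HOTAIR libraries, as labelled. All 8 epithelial markers examined were in the table, with a summed level of 10534 to 11805 CPM in MCF10A and 6252 to 7837 CPM in DCIS.COM. This sum hides opposite directions. KRT5, KRT14, KRT17 and CDH1 were lower in every DCIS.COM library than in every MCF10A library, and KRT8, KRT18, EPCAM and TP63 were higher. Of 8 leukocyte markers only CD14 and CD68 were in the table, with a summed level of 41.4 to 47.1 CPM in MCF10A and 5.63 to 6.55 CPM in DCIS.COM. The defining leukocyte marker PTPRC had no row. Of 3 endothelial markers PECAM1 was present, at 1.70 to 2.69 CPM in MCF10A and 10.1 to 13.3 CPM in DCIS.COM, and none of 4 fibroblast markers was. The part of these marker differences in the results below was not tested. The empty-vector DCIS.COM libraries differed from each other more than those of any other group, with a chi-square per degree of freedom of 70.3 over genes against 4.03 to 9.64 in the other groups, so the differences of the TRIM genes described and the counts over gene lists that rest on them are also given without replicate 1 and then without replicate 2 of that group.

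**Figure D1:**
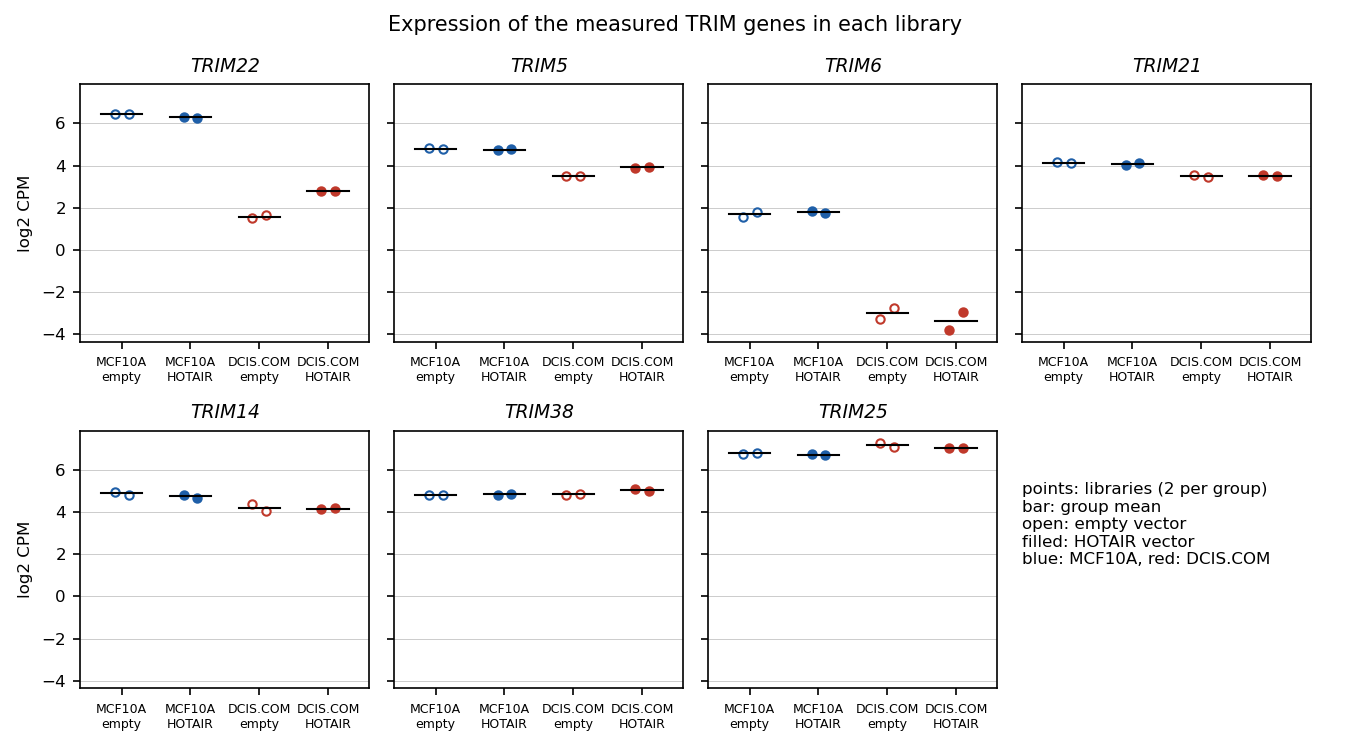
Expression of the 7 measured TRIM genes in log2 CPM (y axis) in each library of the 4 groups (x axis). Points are libraries, horizontal bars are group means of 2 libraries, open symbols are empty vector and filled symbols HOTAIR vector. TRIM22 and TRIM6 sit far lower in all 4 DCIS.COM libraries, and TRIM38 stays between 4.79 and 5.10 throughout.

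TRIM22 and TRIM6, neighbours on chromosome 11, were expressed in MCF10A and at far lower levels in DCIS.COM, TRIM5 was lower by a smaller amount, and the remaining 4 genes differed by 1.60-fold or less. This comparison asks how the cell lines differ at the same vector. It was tested with limma on log2 CPM, with Benjamini-Hochberg adjustment over all 13771 genes, and a gene was called where its adjusted p was below 0.05 and its fold change 1.5 or more. With the empty vector 5 of the 7 measured genes were called lower in DCIS.COM, where 23.8% of all genes were called lower, and 0 were called higher, where 22.5% of all genes were. With the HOTAIR vector 4 were called lower against 21.7% of all genes, and 0 higher against 22.0%. At an unadjusted p under 0.05 the differences of 6 and 7 of the 7 genes passed, against 71.0% and 68.7% of all genes. The empty-vector and HOTAIR-vector comparisons use different libraries, but each shares its DCIS.COM libraries with the contrast on which TRIM22 was selected. TRIM6 passed the table's filter on low values (CPM above 0.5 in at least 2 libraries) through MCF10A alone, so it had to differ, and the counts above are read as a description.

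TRIM22 (Entrez 10346, GRCh37 chr11:5710840-5758319, plus strand) was listed at 6.44 and 6.44 log2 CPM in the empty-vector MCF10A libraries and at 6.32 and 6.26 with HOTAIR. In DCIS.COM it was listed at 1.52 and 1.65 with the empty vector and at 2.79 and 2.82 with HOTAIR. All 4 MCF10A libraries lay above all 4 DCIS.COM libraries, and the groups did not overlap in either cell line. DCIS.COM was 29.0-fold lower with the empty vector (log2 difference -4.86, SE 0.083, adjusted p = 6.08e-09, limma). With the HOTAIR vector it was 11.2-fold lower (-3.48, SE 0.083, adjusted p = 2.59e-08). The first difference was -4.79 without replicate 1 and -4.92 without replicate 2 of empty-vector DCIS.COM, and the second stayed between -3.51 and -3.45 with any single library left out. In these bulk libraries, fewer expressing cells and less RNA per cell cannot be told apart.

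TRIM6, a ligase that assembles unanchored ubiquitin chains in interferon signalling, is at chr11:5617339-5634188 on the plus strand. It was the lowest of the genes in every group. Its values in MCF10A were 1.58 and 1.82 log2 CPM with the empty vector and 1.84 and 1.73 with HOTAIR. In DCIS.COM they were -3.25 and -2.77 with the empty vector and -3.80 and -2.93 with HOTAIR, the lowest value standing for 0 reads. The empty-vector DCIS.COM libraries together held 3 reads of TRIM6 and the MCF10A libraries 183, a depth-corrected ratio of 60.0 (95% interval 20.2 to 294, exact for counting error only). With HOTAIR the reads were 2 against 133, a ratio of 117 (95% interval 31.7 to 974). Since the gene entered the table through MCF10A alone, these ratios are a description, with no test. On the log2 scale the differences were -4.71 (SE 0.33, with -4.47 or -4.95 without replicate 1 or 2 of empty-vector DCIS.COM) and -5.15 (SE 0.33). That scale understates changes of low genes, and with a pseudocount of 1 CPM the differences were -1.92 and -2.02. The annotation has a readthrough transcript, TRIM6-TRIM34, which shares 29.2% of TRIM6's exonic bases, and the sources used here do not say how reads on shared bases were counted.

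TRIM5, the retroviral capsid restriction factor, is annotated at chr11:5684425-5959849 on the minus strand, so its span overlaps TRIM22, but no exonic bases of either gene are shared across strands. It was at 4.84 and 4.77 log2 CPM in empty-vector MCF10A and at 4.73 and 4.78 with HOTAIR. In DCIS.COM it was at 3.50 and 3.52 with the empty vector and at 3.89 and 3.95 with HOTAIR. As for TRIM22, every MCF10A library lay above every DCIS.COM library. DCIS.COM was 2.45-fold lower with the empty vector (log2 difference -1.30, SE 0.080, adjusted p = 2.50e-06, limma) and 1.79-fold lower with HOTAIR (-0.84, adjusted p = 3.38e-05). Without replicate 1 or 2 of empty-vector DCIS.COM the first difference was -1.28 or -1.31.

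TRIM21, the cytosolic antibody receptor (chr11:4406127-4414932, minus strand), was lower in DCIS.COM by amounts close to the fold threshold. Its levels were 4.16 and 4.11 log2 CPM in empty-vector MCF10A, 4.02 and 4.10 in HOTAIR MCF10A, 3.57 and 3.45 in empty-vector DCIS.COM and 3.55 and 3.49 in HOTAIR DCIS.COM. The cell lines did not overlap. The difference was -0.63 with the empty vector (1.54-fold, adjusted p = 0.000416, limma) and was called. With HOTAIR it was -0.54 (1.46-fold, adjusted p = 0.000972) and fell short of the fold threshold. TRIM14, which serves as an adaptor at the mitochondrial signalling protein MAVS (chr9:100831557-100881504, minus strand), was at 4.97 and 4.82 and then 4.82 and 4.69 in MCF10A, and at 4.38 and 4.06 and then 4.13 and 4.18 in DCIS.COM, each time empty vector first. Its differences were -0.68 (1.60-fold, SE 0.12, adjusted p = 0.00131) and -0.61 (1.52-fold, adjusted p = 0.00252), both called and both without overlap. The calls of TRIM21 and TRIM14 sit at the threshold: without replicate 2 of the empty-vector DCIS.COM libraries the empty-vector differences were -0.57 and -0.51, neither was called, and the count of genes called lower was 3. Without replicate 1 they were -0.68 and -0.84, both called, and the count was 5. Without replicate 1 of either HOTAIR group the count with HOTAIR was 3, because the TRIM14 difference became -0.58 or -0.54.

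TRIM25 and TRIM38 were not lower in DCIS.COM. TRIM25 is the ligase that activates the RNA sensor RIG-I (chr17:54913748-54991441, minus strand). It was at 6.76 and 6.83, then 6.77 and 6.69 log2 CPM in MCF10A, and at 7.29 and 7.09, then 7.03 and 7.05 in DCIS.COM, again empty vector first, with every DCIS.COM library above the MCF10A libraries. The differences were 0.39 (1.31-fold, adjusted p = 0.00266, limma) and 0.31 (1.24-fold, adjusted p = 0.00923), under the fold threshold in both. The first was 0.29 without replicate 1 and 0.50 without replicate 2 of empty-vector DCIS.COM, neither called. TRIM38, a regulator of cytokine signalling through the TAK1 kinase complex (chr6:25963030-25991459, plus strand), was at 4.79 and 4.83 in empty-vector MCF10A and at 4.82 and 4.85 in empty-vector DCIS.COM, which overlapped. The difference was 0.02 with a 95% interval of -0.14 to 0.19, and 0.039 or 0.011 without replicate 1 or 2 of empty-vector DCIS.COM. With HOTAIR the values were 4.83 and 4.86 in MCF10A and 5.10 and 5.00 in DCIS.COM, a difference of 0.20 (95% interval 0.034 to 0.37, adjusted p = 0.0383) that was not called, and over 17 alternative analyses its adjusted p ranged from 0.0099 to 0.24.

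**Figure D2:**
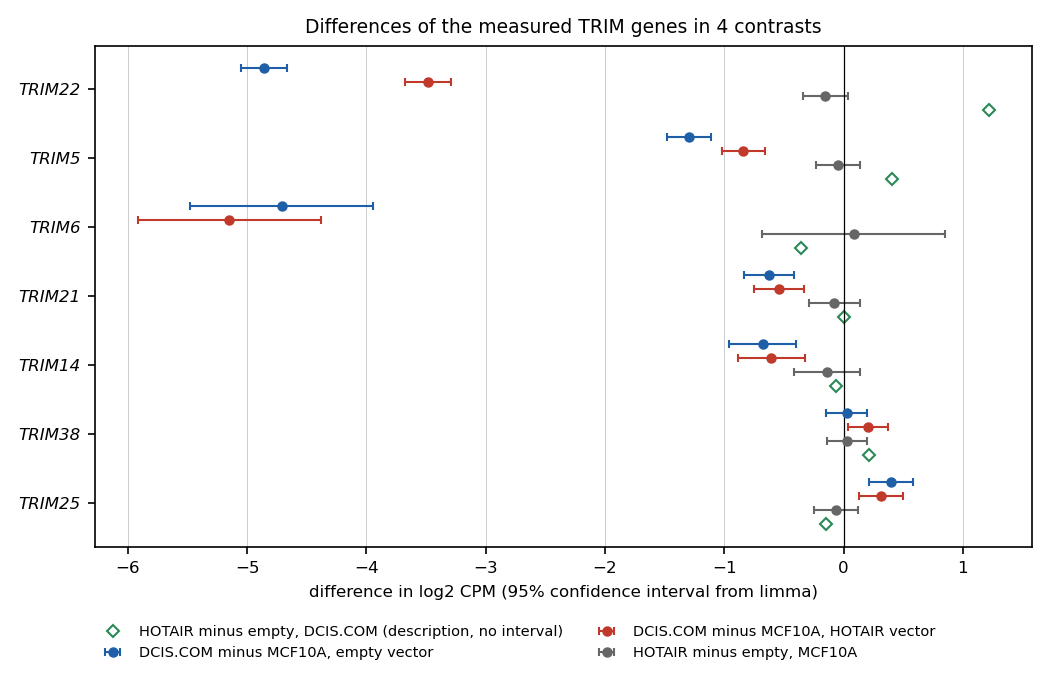
Difference in log2 CPM (x axis) of each measured TRIM gene (y axis) between cell lines at each vector and between vectors in each cell line. Points with bars are limma estimates with 95% confidence intervals, and open diamonds are the DCIS.COM vector contrast, given with no interval because TRIM22 was chosen by it. TRIM22 and TRIM6 lie between -5.15 and -3.48 in the cell line contrasts, while the MCF10A vector contrasts lie between -0.15 and 0.09.

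Because transcript length differs between genes, the order of levels was read on a scale of CPM per kilobase of the annotated canonical transcript, which may differ from the gene models used for counting. TRIM22 was the most abundant of the 7 genes in MCF10A, at 30.0 ± 0.053 CPM per kb in empty-vector cells and 27.0 ± 0.81 in HOTAIR cells (SD over 2 libraries). There followed TRIM25 (19.3 and 18.5), TRIM21 (9.07 and 8.60), TRIM5 (8.30 and 8.03), TRIM14 (6.64 and 6.03), TRIM38 (2.98 and 3.05) and TRIM6 (0.93 and 0.99), the first value of each pair being the empty vector. In DCIS.COM TRIM25 was the most abundant, at 25.5 ± 2.6 and 22.9 ± 0.26 CPM per kb, and TRIM22 came 6th of 7, at 1.01 ± 0.065 in empty-vector cells and 2.40 ± 0.027 in HOTAIR cells. TRIM14 stood above TRIM5 in empty-vector DCIS.COM (4.17 and 3.37) and below it with HOTAIR (3.95 and 4.48). Libraries of neighbouring genes in these orders did not overlap in any group, and the order was not tested. Across the 4 groups TRIM22 stood highest in empty-vector MCF10A, then in HOTAIR MCF10A, HOTAIR DCIS.COM and empty-vector DCIS.COM, and the difference between the first 2 of these did not pass the test below.

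In MCF10A cells, where the comparison asks what HOTAIR changed in normal-labelled epithelium, none of the 7 genes passed the test. The count called by limma was 0 of 7, against 0.0218% of all genes (3 of 13771) called in either direction, and 0 of 7 had an unadjusted p under 0.05, against 7.28% of all genes. Limma-voom on the recovered reads also called 0 of the 7, and 5 of all genes. The empty-vector DCIS.COM libraries, which differed most from each other, enter this contrast through the shared estimate of spread. Fitted on the MCF10A libraries alone, limma called 0 of the 7 and 1 of all genes. The adjusted p of TRIM22 was then 0.252, so the adjusted p-values below depend on the shared estimate. The count of all genes called likewise depends on the fit, so its small size is no measure of how much HOTAIR changed. TRIM22 was lower in both HOTAIR libraries than in both empty-vector libraries, with a difference of -0.15 (95% interval -0.34 to 0.040, adjusted p = 0.800). TRIM21 was likewise without overlap, at -0.08 (95% interval -0.29 to 0.13, adjusted p = 0.949), and the libraries of the other 5 genes overlapped. With 2 libraries against 2, exact permutation gives full separation a two-sided p of 0.333, so separation alone is no evidence of a difference. The share of all genes separated in this way is not given here. The interval was widest for TRIM6, from -0.68 to 0.85, and those of the other genes stayed between -0.42 and 0.20.

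In DCIS.COM cells the same vector contrast was the one by which TRIM22 was selected, and 0.0871% of all genes (12 of 13771) were called higher in it. TRIM22 was higher with HOTAIR by 1.22 on the log2 scale (2.33-fold), from 1.01 to 2.40 CPM per kb. TRIM5 was higher by 0.41 and TRIM38 by 0.21, and in these 3 genes both HOTAIR libraries lay above both empty-vector libraries. TRIM25 differed by -0.15, with both HOTAIR libraries below. As in MCF10A, such separation of 2 libraries from 2 is by itself no evidence of a difference. The share of all genes so separated in DCIS.COM is not given here, so the number of separated genes is no result. TRIM21 (0.01), TRIM14 (-0.07) and TRIM6 (-0.35, from 3 and 2 reads) overlapped between vectors. Without replicate 1 or 2 of the empty-vector libraries the differences were 1.16 or 1.29 for TRIM22, 0.40 or 0.42 for TRIM5, 0.20 or 0.22 for TRIM38 and -0.043 or -0.25 for TRIM25. Those of TRIM21 (0.064 or -0.051) and TRIM14 (0.096 or -0.23) changed sign, and those of TRIM6 were -0.59 or -0.11. Even with HOTAIR, TRIM22 in DCIS.COM stood at 8.86% of its level in HOTAIR MCF10A, and with the empty vector at 3.38% of its level in empty-vector MCF10A. For TRIM5 these shares were 55.8% and 40.6%, and for TRIM6 they were 0.88% and 1.69%.

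Promoter sequences were available for 7 of the 8 listed genes in the RefSeq table (GRCh38.p14), each spanning 250 bases before to 50 after an annotated start, and each matched GRCh37 exactly at a single place, whose coordinates are given. There was no entry for TRIM22. They are shown because interferon-induced genes often carry the core GAAANNGAA, which was searched on both strands. At least 1 match was found in 4 of the 7 genes, in TRIM5, TRIM14, TRIM21 and TRIM34, and in 8.11% of 35116 promoters of the same length. TRIM5 and TRIM21 are printed as genes with the core and TRIM6 as a gene without it, with the matches in capitals. TRIM5 is at chr11:5706255-5706554 on the minus strand, TRIM21 at chr11:4414883-4415182 on the minus strand and TRIM6 at chr11:5617617-5617916 on the plus strand.
TRIM5: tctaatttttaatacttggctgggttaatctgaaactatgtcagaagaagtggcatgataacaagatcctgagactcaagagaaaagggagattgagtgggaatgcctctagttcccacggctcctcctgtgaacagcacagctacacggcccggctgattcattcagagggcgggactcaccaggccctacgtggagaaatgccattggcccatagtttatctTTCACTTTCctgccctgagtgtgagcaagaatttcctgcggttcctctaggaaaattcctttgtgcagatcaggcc
TRIM21: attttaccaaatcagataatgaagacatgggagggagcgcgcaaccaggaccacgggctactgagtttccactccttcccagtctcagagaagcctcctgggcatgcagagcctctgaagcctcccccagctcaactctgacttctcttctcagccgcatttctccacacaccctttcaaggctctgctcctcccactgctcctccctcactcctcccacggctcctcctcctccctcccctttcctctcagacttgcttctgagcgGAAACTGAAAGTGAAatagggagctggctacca
TRIM6: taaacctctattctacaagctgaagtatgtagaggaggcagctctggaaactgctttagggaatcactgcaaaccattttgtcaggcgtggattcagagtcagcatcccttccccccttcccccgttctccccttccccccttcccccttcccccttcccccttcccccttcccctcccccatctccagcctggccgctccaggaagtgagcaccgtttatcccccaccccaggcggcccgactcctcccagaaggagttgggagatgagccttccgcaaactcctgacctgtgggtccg
Counted from the start as +1, the match in TRIM5 begins at -26 and lies on the reverse strand, so it reads TTCACTTTC. TRIM21 holds overlapping matches at 18 and 24 on the forward strand, the run GAAACTGAAAGTGAA. The TRIM14 match begins at -25 and that of TRIM34 at -89. Genes with the core (TRIM5, TRIM21, TRIM14) and without it in this window (TRIM6) were called lower in empty-vector DCIS.COM, and TRIM25 and TRIM38, also without it, were not. A match describes the letters only, and binding was not measured.

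Among the 46 TRIM family genes in the table, TRIM22 and TRIM6 held the lowest places in the cell line comparison. TRIM6 passed the filter through MCF10A alone, so its place is a description. TRIM22 was 1st and TRIM6 2nd with the empty vector, TRIM6 was 1st and TRIM22 2nd with HOTAIR, and TRIM5 was 8th and 12th. Among all 13771 genes TRIM22 lay at 1.9% and 3.63% from the lowest. Of the 39 other family members 11 were called lower and 9 higher in DCIS.COM with the empty vector (median difference -0.08, against 0.00 over all genes), and 12 lower and 7 higher with HOTAIR (median -0.13). These shares were near those of all genes, of which 23.8% were lower and 22.5% higher with the empty vector and 21.7% and 22.0% with HOTAIR. The empty-vector count in either direction, 20, was 19 without replicate 1 and 21 without replicate 2 of empty-vector DCIS.COM. TRIM31 (-2.56 and -2.85), TRIM36 (-2.26 and -2.09) and PML (-1.43 and -1.53), the scaffold of nuclear bodies and itself interferon-induced, were the lowest of them. TRIM9 (7.06 and 7.57), known as a brain-enriched ligase, TRIM2 (2.92 and 3.24) and TRIM47 (1.66 and 1.73) were the highest, and all 6 were called at both vectors. TRIM31 averaged -1.73 and -1.54 log2 CPM in DCIS.COM, and TRIM9 averaged -2.85 and -3.42 in MCF10A, both below 0.5 CPM. Each passed the filter through the other cell line alone, so it had to differ and its call supports nothing. None of the 39 passed between vectors in MCF10A by limma or limma-voom, and 0 had an unadjusted p under 0.05.

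**Figure D3:**
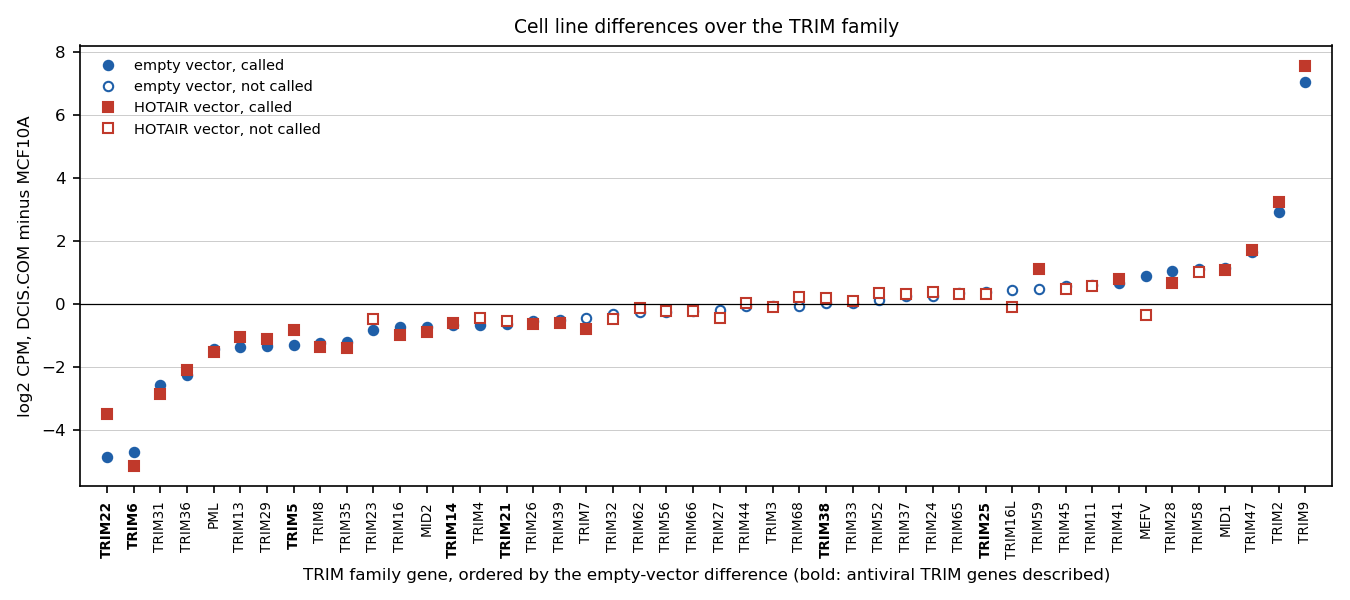
Difference in log2 CPM between DCIS.COM and MCF10A (y axis) for 46 TRIM family genes ordered by the empty-vector difference (x axis). Circles are the empty vector and squares the HOTAIR vector, filled where called and open where not, and bold names are the 7 genes described. TRIM22 and TRIM6 stand at the low end and TRIM9, at 7.06 and 7.57, at the high end.

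The neighbourhood of TRIM22 was examined next. Within 500 kb of the gene the annotation holds 48 protein-coding genes, TRIM22 included, of which 31 are olfactory receptor genes, and only 4 genes were in the table, TRIM6, TRIM5, TRIM22 and FHIP1B. FHIP1B, which encodes a subunit of an endosomal transport complex, differed by -0.31 at both vectors (adjusted p = 0.0147 with the empty vector and 0.0153 with HOTAIR, limma) and was not called. Within 2000 kb on each side there were 23 genes outside the TRIM genes listed, with a median cell line difference of 0.02 (empty vector) and -0.04 (HOTAIR). Of these, 2 were called lower and 4 higher with the empty vector, and 3 lower and 3 higher with HOTAIR. Over all genes 23.8% were called lower and 22.5% higher with the empty vector, and 21.7% and 22.0% with HOTAIR, so these counts are no result about the stretch. The family members TRIM68 and TRIM3, also on this stretch, differed by -0.05 and -0.06 in the empty-vector comparison and by 0.22 and -0.11 in the HOTAIR one, none of them called. The differences of TRIM22 and TRIM6 were thus the lowest of the stretch in both comparisons, where the lowest of the 23 other genes were at -0.92 and -1.03. For TRIM6, which passed the filter through MCF10A alone, this place is a description.

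Of 52 interferon-stimulated antiviral genes listed 45 were in the table, and with the empty vector 29 were called lower and 4 higher (median difference -1.004, against 0.00 over all genes). With HOTAIR 24 were lower and 4 higher (median -0.67). Of all genes 23.8% were lower and 22.5% higher with the empty vector, and 21.7% and 22.0% with HOTAIR. The empty-vector count in either direction, 33, was 35 without replicate 1 and 33 without replicate 2 of empty-vector DCIS.COM. IFI27 (-9.88 and -8.74), IFI44L (-7.06 and -6.56) and EPSTI1 (-6.77 and -5.84) were the lowest. The antiviral deaminase APOBEC3G (5.01 and 4.42), the virion tether BST2 (3.35 and 4.42) and the secreted glycoprotein gene LGALS3BP (1.52 and 1.65) were the highest. IFI27, IFI44L and EPSTI1 averaged 0.14 to 0.32 CPM in DCIS.COM, so they passed the filter of 0.5 CPM through MCF10A alone. APOBEC3G averaged -3.23 and -2.45 log2 CPM in MCF10A and passed it through DCIS.COM alone. These genes had to differ, so their differences are a description, and the counts above include them. Between vectors in MCF10A 0 of the 45 were called by limma or limma-voom. A difference above 0 was seen in 3 (median -0.27, against -0.005 over all genes). In limma 24 of the 45 had an unadjusted p under 0.05, against 7.28% of all genes. Without replicate 1 or without replicate 2 of the empty-vector DCIS.COM libraries, which enter only the shared estimate of spread, 1 was called. Between vectors in DCIS.COM 35 of the 45 were higher with HOTAIR (median 0.18, against 0.01 over all genes), given as a description.

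Of 21 genes of nucleic acid sensing and NF-kB signalling 11 were called lower and 0 higher in DCIS.COM with the empty vector (median -0.69), and 9 lower and 1 higher with HOTAIR (median -0.30). DDX58, which encodes RIG-I, the sensor TRIM25 acts on, differed by -1.69 and -1.20, and the adaptor MYD88 by -1.16 and -1.06, all called. IRF3, the transcription factor downstream of these sensors, was at 0.48 and 0.66 and was called with HOTAIR. Of 17 interferon receptor and signalling genes 10 were called lower and 0 higher with the empty vector (median -0.76), and 8 lower and 1 higher with HOTAIR (median -0.49). Over all genes the shares were 23.8% lower and 22.5% higher with the empty vector and 21.7% and 22.0% with HOTAIR, and the median was 0.00 in both. Without replicate 1 or 2 of empty-vector DCIS.COM the empty-vector counts were 10 or 12 for the sensing genes and 9 or 11 for the receptor genes. The feedback inhibitor SOCS1 (-3.16 and -3.30), the receptor chain IFNGR1 (-3.05 and -2.53) and IRF9 (-2.72 and -2.13), a transcription factor of the type I interferon response, were the lowest, and the deISGylase USP18 (0.49 and 0.86) was called higher with HOTAIR. SOCS1 averaged -2.54 and -2.43 log2 CPM in DCIS.COM, under the filter of 0.5 CPM. It passed through MCF10A alone, so its difference is a description.

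Of 10 measured E2 enzymes and cofactors, which hand ubiquitin to TRIM ligases or bind their targets, 3 were called lower with the empty vector, UBE2D1 (-1.77), UBE2W (-0.91) and UBE2V2 (-0.59), and 1, UBE2D1 (-1.15), with HOTAIR. Of all genes 23.8% and 21.7% were called lower, so these counts are no result about the list. The empty-vector count was 4 without replicate 2 of empty-vector DCIS.COM and 1 without any other single library.

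Genes whose 8 values, centred on their own mean, lay closest to those of TRIM22 were PROS1, EFCAB1, LOC613038, AMY2B and COL17A1, with root mean square differences of 0.15 to 0.20 on the log2 scale. PROS1 encodes the anticoagulant protein S and COL17A1 a hemidesmosomal collagen of basal epithelium. PROS1 was at 5.66, 5.63, 5.64 and 5.63 log2 CPM in the MCF10A libraries, and in DCIS.COM at 0.95 and 1.34 with the empty vector and at 2.21 and 2.28 with HOTAIR. COL17A1 was near 10.9 to 11.0 in MCF10A, at 6.05 and 5.98 in empty-vector DCIS.COM and at 6.98 and 6.94 with HOTAIR. Both showed the layout of TRIM22, with like levels in all MCF10A libraries and low levels in DCIS.COM that were higher with HOTAIR. EFCAB1 had 0 reads in both empty-vector DCIS.COM libraries and 2 and 3 with HOTAIR, so its likeness rests on few reads. TRIM6 ranked 354th of 13770 in likeness (0.72) and TRIM5 1632nd (1.58). This likeness is a description over 8 libraries, and the selection of TRIM22 by its DCIS.COM contrast fixes part of it.

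**Figure D4:**
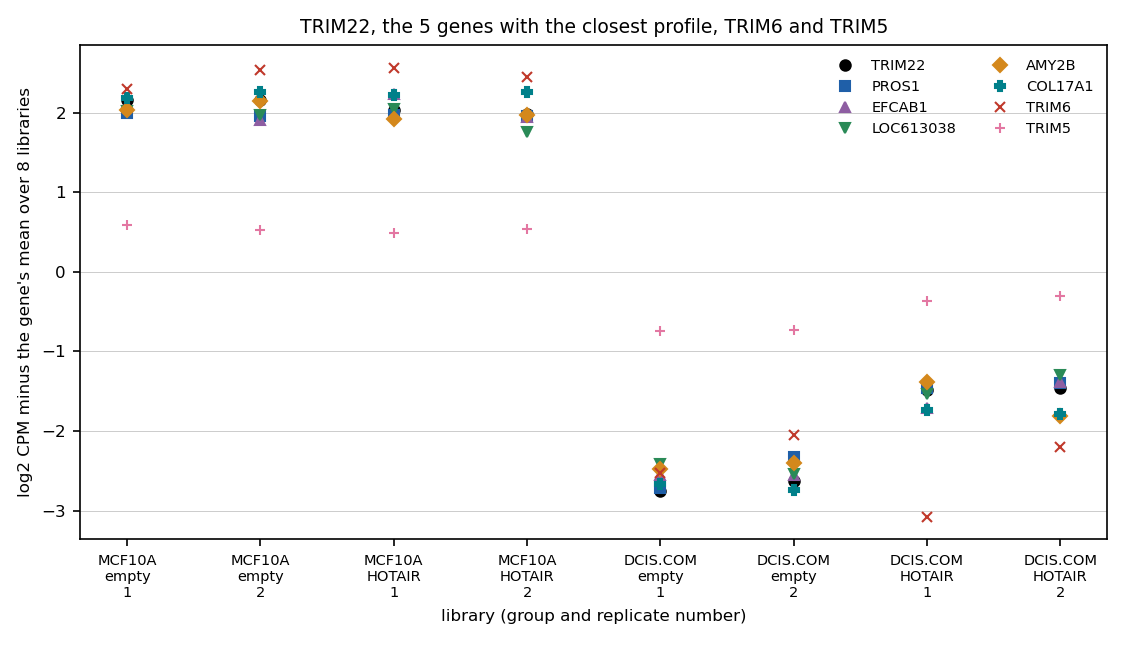
Log2 CPM minus each gene's own mean over the 8 libraries (y axis) in each library (x axis) for TRIM22, the 5 genes with the closest profile, TRIM6 and TRIM5. The 5 genes track TRIM22, near 2 in MCF10A and below -1 in DCIS.COM, while TRIM6 is not higher with HOTAIR and TRIM5 spans a smaller range.

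As a share of the MCF10A level at the same vector, PROS1 stood in DCIS.COM at 4.33% (empty vector) and 9.41% (HOTAIR), and COL17A1 at 3.29% and 6.22%, beside 3.38% and 8.86% for TRIM22. PROS1 and COL17A1 were taken for profiles close to that of TRIM22, so shares like its own were fixed by that choice. Other genes that were abundant in MCF10A stood far lower: IFI27 at 0.070% and 0.18%, IFI44L at 0.57% and 0.94% and EPSTI1 at 0.72% and 1.45%. They were the lowest of the interferon-stimulated genes listed and passed the filter through MCF10A alone, so low shares were fixed in advance. In reads, IFI27 had 5 and 3 in the empty-vector DCIS.COM libraries and 11 and 6 with HOTAIR, against 2345 to 6002 in the MCF10A libraries. Among these picked genes the HOTAIR-vector shares ran from 0.18% for IFI27 to 9.41% for PROS1, which is a description.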

How the data were processed

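Total RNA of the 8 libraries was made into ScriptSeq v2 libraries and sequenced as 76 nt paired-end reads. Per the labels and the study's methods, the authors aligned reads to hg19 with Rsubread, counted them per UCSC known gene with featureCounts and annotated symbols with org.Hs.eg.db, and the submitters' processing notes also name edgeR. Strand and multi-overlap settings are not given in the sources used here. The deposited values are log2 CPM, which hold a prior of 0.072 CPM, so a listed fold understates changes of low genes. Each of the 13771 genes exceeded 0.5 CPM in 2 or more libraries. Whole reads were recovered for 100% of values (tolerance 0.05 read), and 343 genes had no symbol.

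Groups were fitted with limma 3.58.1 (R 4.3.3): 4 group means over all 8 libraries, empirical Bayes with a mean-variance trend, and Benjamini-Hochberg adjustment over all genes. The procedure was tested on simulated data. Exact permutation of 2 against 2 libraries cannot give a two-sided p below 0.333. Positions are GENCODE 44 on GRCh37. The members, lists and tests were chosen with earlier results of these data known. Named genes were the TRIM genes listed, table genes within 500 kb of TRIM22, the 3 largest differences in each direction of each list (some left out here), the 5 closest profiles and HOTAIR. MYD88 and IRF3 are list members, and genes compared by share of the MCF10A level were picked after their values were seen. A list of transcription factors is not reported here. Alternatives tried were quantile normalization, pseudocounts of 0.1 and 1, centring on the median, a mean CPM of at least 2, no trend, a replicate block, separate fits, limma-voom on recovered reads, each library left out, and other fold thresholds. Replicate numbers share only a number: deviations of same-numbered libraries correlated between -0.024 and 0.045.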

Additional observations from a re-analysis of the deposited data

Results flagged for a closer look

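Both HOTAIR libraries of TRIM22 lay below both empty-vector libraries in MCF10A and above them in DCIS.COM. The MCF10A difference was -0.15 (95% interval -0.34 to 0.040, adjusted p = 0.800, limma) and did not pass the test, and that in DCIS.COM was 1.22. The HOTAIR effect in DCIS.COM minus that in MCF10A was 1.37 on the log2 scale. This difference was not tested, because TRIM22 was chosen by its DCIS.COM contrast.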

How the results depend on the processing

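TRIM22 and TRIM5 were called lower in DCIS.COM at both vectors under every alternative that kept the fold threshold of 1.5. TRIM6 entered the table through MCF10A alone, so its call supports nothing, and it gave no value with a mean CPM of at least 2. The number of genes called in either direction was 5 with the empty vector and 4 with HOTAIR. At a log2 fold threshold of 1.5 it was 2 in both, and with no fold threshold 7 with HOTAIR, TRIM25 and TRIM38 among them as higher. With a library left out the counts ranged from 3 to 5 with the empty vector, 3 to 4 with HOTAIR and 0 to 0 between vectors in MCF10A. The TRIM22 difference between vectors in DCIS.COM, 1.22 as reported, was 0.9998 with a pseudocount of 1 CPM and ranged from 1.16 to 1.29 with a library left out. The TRIM6 difference between vectors in MCF10A, 0.09, became -0.032 without replicate 1 of empty-vector MCF10A and ranged from -0.032 to 0.21 over the libraries left out. TRIM21 with the empty vector was not called with a pseudocount of 1 CPM, median centring, quantile normalization or without replicate 2 of empty-vector DCIS.COM (-0.58, -0.58, -0.54 and -0.57). With the replicate block the counts were 5, 4 and 0 and the TRIM22 difference 1.22, so it changed no call of these genes. Depth limited TRIM6, with 3 and 2 reads in DCIS.COM.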
